A study of Mus musculus with 19 samples.

Results

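The BCL2 family of the intrinsic, or mitochondrial, pathway of apoptosis was examined through 10 genes, namely Bcl2, Bcl2l1, Mcl1, Bax, Bak1, Bid, Bad, Bbc3, Pmaip1 and Bcl2l11. Every non-control probe to which the array files give one of these gene names was taken, which gave 19 probes of the 41174 on the array, for 10 of its 27793 gene names. Bcl2, Bcl2l1 and Bcl2l11 had 3 probes each, Mcl1, Bak1 and Bad had 2, and Bax, Bid, Bbc3 and Pmaip1 had 1. One probe of Bcl2l11 carried that name in the C2C12 files only.

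Proteins of this family decide whether the outer membrane of the mitochondrion is opened so that cytochrome c can escape and start the caspases. Guardians (BCL2, BCL-XL from Bcl2l1, and MCL1) hold the membrane closed, effectors (BAX and BAK from Bak1) form the pore, and BH3-only proteins (BID, BAD, PUMA from Bbc3, NOXA from Pmaip1 and BIM from Bcl2l11) carry stress signals to both. Skeletal muscle fibres are post-mitotic cells in which this balance is linked to the loss of nuclei and fibres, while proliferating myoblasts use it in culture and during differentiation.

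Total RNA was measured on 19 one-colour Agilent whole mouse genome arrays in 4 groups. The cells were C2C12, an established mouse myoblast line. Those labelled WT (n = 6) carried empty plasmids. Those labelled HDAC4&5 (n = 6) carried plasmids for wild-type human HDAC4 and human HDAC5, class IIa histone deacetylases. Both were stable populations kept under Hygromycin B and Geneticin, each at 500 µg/ml, so that the WT cells shared the transfection and the selection, and cells were collected 48 h after seeding at about 80% confluency. Soleus, a slow oxidative muscle, came from male C57BL6J mice of 12 weeks after a 5 h fast. The group labelled db (n = 4) was homozygous for the db mutation of the leptin receptor (db +/+), a model of obesity, and the group labelled Con (n = 3) held heterozygous littermates (db -/+). Whole muscle was used, in which fewer cells of a type and less RNA per cell cannot be told apart.

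Levels are log2 of the signal relative to the 75th percentile of the same array, so that 0 is the brightness of the probe at that percentile, and they are compared between groups for 1 probe at a time. A gene was called when its brightest probe had a Benjamini-Hochberg adjusted p below 0.05 from limma over all probes tested. The labels do not say that the arrays of C2C12 cells came from separate cultures, and the study's methods give 3 biological replicates a group, fewer than the 6 arrays. Their p-values therefore measure the spread between these arrays, which may be technical in part. A fit in which the 2 arrays of a group on the same slide were averaged, 3 against 3, was added after seeing the data, and its adjusted p is given where it ends a call.

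The arrays themselves set limits on the muscle data. The 75th percentile had an intensity of 423 to 1639 on C2C12 arrays, 448 to 529 on the soleus arrays of one slide and 148 to 229 on those of the other. Replicate arrays correlated at 0.989 to 0.999 in cells, 0.918 to 0.973 in Con and 0.868 to 0.984 in db soleus. The mouse probe for Hdac4 did not differ between the cell groups (0.24 to 0.51 in WT and 0.19 to 0.52 in HDAC4&5), while that for Hdac5 was at 1.95 to 2.79 and 2.91 to 4.53. As the plasmids hold human genes, these mouse probes are an incomplete check of the labels. Genes of myoblasts stood apart between the cell groups, in a comparison where 35.5% of all genes tested were called higher and 31.5% lower. All 6 myoblast markers tested of 8 were lower in HDAC4&5 cells, their summed level falling from 151 to 322 times the 75th percentile in WT to 6.68 to 9.22 times, and Myod1 was not well above background on any HDAC4&5 array. Neither group of cells had Myf5 or Pax7 signal well above background. Slow muscle markers were lower in 8 of 9 tested and higher in 1 (summed level 30.6 to 49.2 against 1.51 to 1.76). Of those lower, 4 (Tnni1, Myl2, Myl3 and Ckm) were not well above background on any HDAC4&5 array. Like Myod1, they entered the test through the WT arrays alone, so that their calls rest on values at background. The 5 fibroblast markers tested of 7 were all called, 3 higher and 2 lower. Col1a1, a collagen chain, was 10.2-fold and Pdgfra, a growth factor receptor, 4.54-fold higher, and Col1a2 was 5.48-fold and Dcn 2.48-fold lower, while the summed level of the list overlapped (78.6 to 148 against 92.6 to 114). Macrophage markers summed to 2.00 to 2.74 in WT and 6.21 to 7.81 in HDAC4&5 cells, with 2 of the 3 tested higher and 1 lower. Of those higher, Lyz2 was not well above background on any WT array and entered the test through the HDAC4&5 arrays alone. The part of these differences in the results for the family was not tested.

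A few of the 60-base probes lie in the coding part that makes a BCL2 protein or cross an exon junction, and they show what was hybridised. They are given 5′ to 3′ on the strand of the transcript with coordinates of mm9. The capitals of the Bcl2l11 probe mark the codons for the glycine and aspartate at the core of the BH3 domain, the helix by which BIM binds its partners, and those of the Bak1 probe the codons for the tryptophan, glycine and arginine of the BH1 domain. The Bcl2l1 and Bax probes have no capitals.
Bcl2l11 probe 2, chr2:127972893-127983988, plus strand: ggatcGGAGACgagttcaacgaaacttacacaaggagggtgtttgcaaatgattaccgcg
Bak1 probe 2, chr17:27158232-27158291, minus strand: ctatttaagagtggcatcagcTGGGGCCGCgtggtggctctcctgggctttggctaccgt
Bcl2l1 probe 2, chr2:152655185-152655244, minus strand: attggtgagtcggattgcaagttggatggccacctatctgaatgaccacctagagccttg
Bax probe 1, chr7:52721469-52721624, minus strand: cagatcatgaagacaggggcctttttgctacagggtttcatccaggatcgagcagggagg
The Bcl2l11 probe spans 11096 bases of the genome and the Bax probe 156, so both join sequence across an intron.

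In HDAC4&5 cells 6 members of the family were lower than in WT C2C12 cells, 1 was higher and 3 had no call. Among genes called, the falls ran from 1.21-fold for Bax to 123-fold for Pmaip1, and 4 of the 5 BH3-only genes fell at their brightest probe. Over the array, 35.5% of genes tested were called higher and 31.5% lower, so that calls were common in this comparison in both directions. The log2 difference had a median of -0.30 over the 10 members and 0.06 over all 13730 genes tested. When a 1.5-fold difference was also required, 4 members were lower (Bad, Bbc3, Pmaip1 and Bcl2l11) and none higher, against 19.3% of genes lower by that rule. Bad met it at its brightest probe, which lies on the strand opposite to the probe of its RefSeq mRNA, and the latter fell 1.43-fold. Bcl2l11 also met it at its brightest probe, whereas its probe 2, over the BH3 codons, was called 1.36-fold higher. The groups did not overlap for 5 members, where 51.4% of genes tested did not overlap.

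**Figure D1:**
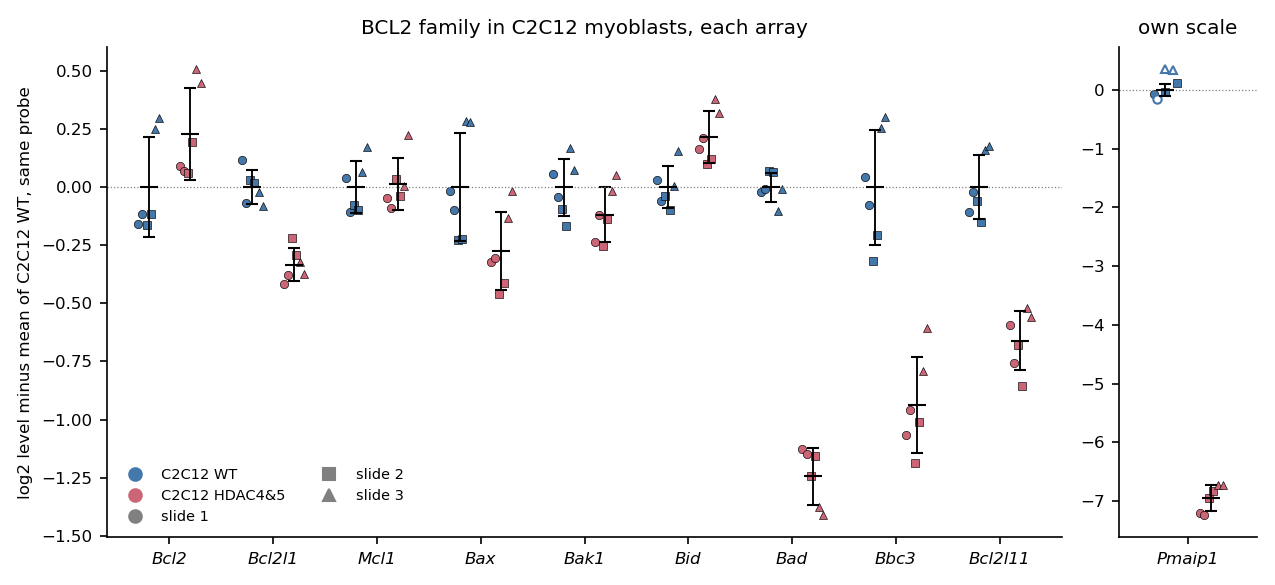
Log2 level of the brightest probe of each BCL2 family gene on each C2C12 array minus the mean of the WT arrays for that probe (dotted line at 0), coloured by group, with the symbol shape giving the slide, bars the mean ± SD of the group and Pmaip1 on an axis of its own. Open symbols are WT arrays whose Pmaip1 spot was marked as an outlier and left out of the mean, and the WT points lie above all HDAC4&5 points for Bcl2l1, Bad, Bbc3, Bcl2l11 and Pmaip1.

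Among the guardians, Bcl2l1, which encodes the long anti-apoptotic BCL-XL and by splicing the short pro-apoptotic BCL-XS, was lower in HDAC4&5 cells. Its brightest probe, on 10 spots of each array, was at -0.44 to -0.24 in WT (median -0.36) and at -0.77 to -0.58 in HDAC4&5 (median -0.70). No HDAC4&5 array reached the lowest WT array. The log2 difference was -0.33 with a standard error of 0.0542 (limma adjusted p = 0.00011), a 1.26-fold fall. The other 2 probes of Bcl2l1 pointed the same way, with differences of -0.17 and -0.26 whose groups overlapped (limma adjusted p = 0.198 and 0.137).

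Bcl2, the founding member, was at -0.04 to 0.42 in WT (median 0.00) and at 0.18 to 0.63 in HDAC4&5 (median 0.26). The ranges overlapped. Both WT arrays of 1 slide and both HDAC4&5 arrays of that slide were the highest of their group, and the difference was 0.22, 0.27 and 0.20 within the 3 slides. The pooled difference of 0.23 (95% interval -0.02 to 0.48) did not pass the test (limma adjusted p = 0.0949), but it did with the replicate number as a block (adjusted p = 0.000668) and with the slide as a block (adjusted p = 0.000126). It also passed without WT replicate 5 (adjusted p = 0.0499) or WT replicate 6 (adjusted p = 0.0359). A second Bcl2 probe differed by 0.04 (limma adjusted p = 0.691), and the third was too dim to be tested.

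Mcl1, a guardian whose protein turns over within hours, had the smallest difference of the 10 members. Its first probe was at 4.41 to 4.69 in WT and 4.42 to 4.74 in HDAC4&5 cells, nearly the same range. The difference was 0.02, with a 95% interval of -0.14 to 0.17 (limma adjusted p = 0.859). The second Mcl1 probe gave -0.05 (adjusted p = 0.732).

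Of the effectors, Bax was at 4.03 to 4.54 in WT (median 4.20) and at 3.80 to 4.24 in HDAC4&5 cells (median 3.94). The ranges overlapped, and the difference was -0.26, -0.21 and -0.36 within the 3 slides. Over all arrays Bax was 1.21-fold lower (log2 difference -0.27, standard error 0.112, limma adjusted p = 0.0454). That call was lost on leaving out any one of WT replicates 1, 2, 5 and 6 or HDAC4&5 replicates 1 to 4 (adjusted p = 0.0511 to 0.101), with quantile normalization (adjusted p = 0.0595), without the filter on dim probes (adjusted p = 0.103) and with the arrays of a slide averaged (adjusted p = 0.195). Bak1 differed by -0.12 at its brightest probe (limma adjusted p = 0.18), where only the slide block gave a call (adjusted p = 0.028). The Bak1 probe over the BH1 codons gave 0.15 (adjusted p = 0.397).

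The BH3-only genes held the widest range of the family. Pmaip1, whose product NOXA binds mainly MCL1 and whose promoter is a target of p53, had the largest fall. It was at 3.69, 3.73 and 3.89 on the 3 WT arrays with an unmarked spot, and at -3.47 to -2.95 (median -3.12) on the 6 HDAC4&5 arrays, on all of which it was still well above background. The groups were about 7 log2 units apart, whereas the spread within a group was below 1 unit. The difference was -6.94 with a standard error of 0.134 (limma adjusted p = 1.77e-11), or 123-fold. The scanner software had marked the spot as an outlier on WT replicates 1, 5 and 6, where it read 3.62, 4.12 and 4.11, and with these kept the difference was -7.03 (adjusted p = 3.42e-14). With normexp background correction, which lifts dim probes, it was -5.92 (adjusted p = 2.59e-09).

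Bbc3, which encodes PUMA, another BH3-only target of p53 that binds all guardians, was at 2.74 to 3.36 in WT (median 3.04) and 1.88 to 2.45 in HDAC4&5 cells (median 2.08). The highest HDAC4&5 array was below the lowest WT array. The difference was -0.94 (standard error 0.125, limma adjusted p = 1.85e-05), a 1.91-fold fall, with -0.99, -0.84 and -0.98 within the slides.

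Bad, whose product is held by 14-3-3 proteins when growth factor signalling phosphorylates it, was lower at both of its probes. The brightest was at -1.32 to -1.15 in WT and -2.63 to -2.34 in HDAC4&5 cells, a difference of -1.24 (standard error 0.0641, limma adjusted p = 1.33e-09), or 2.37-fold. The second was at -3.32 to -2.91 and -3.95 to -3.50, a difference of -0.52 (standard error 0.104, adjusted p = 0.000637), or 1.43-fold. Neither probe had overlapping groups. Bad was the only member with probes on opposite strands, probe 1 at chr19:7025594-7025653 on the minus strand and probe 2 at chr19:7016618-7016677 on the plus strand of mm9. Probe 2 carries the accession of the RefSeq mRNA of Bad, while probe 1 carries that of a cDNA clone. As probes read 1 strand, they do not measure the same transcript, and the size of the fall of Bad depends on which of them is taken. With normexp the fall at probe 1 was -0.78 (adjusted p = 7.07e-05).

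Bcl2l11, which encodes BIM, was the member with calls in opposite directions at its probes. Probe 1, at chr2:127988051-127988110, had no reading frame without a stop codon among its 60 bases. It was at 0.82 to 1.15 in WT (median 0.93) and 0.12 to 0.46 in HDAC4&5 cells (median 0.34), a difference of -0.66 (standard error 0.0792, limma adjusted p = 6.89e-06), or 1.58-fold lower. Probe 2, over the BH3 codons printed above, was at -3.27 to -3.08 in WT and -2.85 to -2.62 in HDAC4&5 cells, a difference of 0.44 (standard error 0.0566, adjusted p = 1.23e-05), or 1.36-fold higher. The groups were apart for both probes, in opposite orders, and which transcripts each probe reads was not tested. Probe 3 was at background on all 19 arrays.

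Bid, which caspase-8 cleaves to link death receptors to mitochondria, was the single member called higher. It was at 2.40 to 2.66 in WT (median 2.49) and 2.60 to 2.88 in HDAC4&5 cells (median 2.69), with the ranges meeting only at their ends. The difference was 0.22 (standard error 0.0656, limma adjusted p = 0.0104), a 1.16-fold rise, and 0.20, 0.18 and 0.27 within the slides. It was not called with normexp background correction (0.14, adjusted p = 0.247), in the deposited matrix (0.03, adjusted p = 0.891) or with the arrays of a slide averaged (adjusted p = 0.111). With such averages the family had 5 calls, all lower, as Bax and Bid dropped out. The deposited matrix put the median of all genes at -0.12 in place of 0.06, with 38.1% rather than 53.0% of calls being higher.

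**Figure D2:**
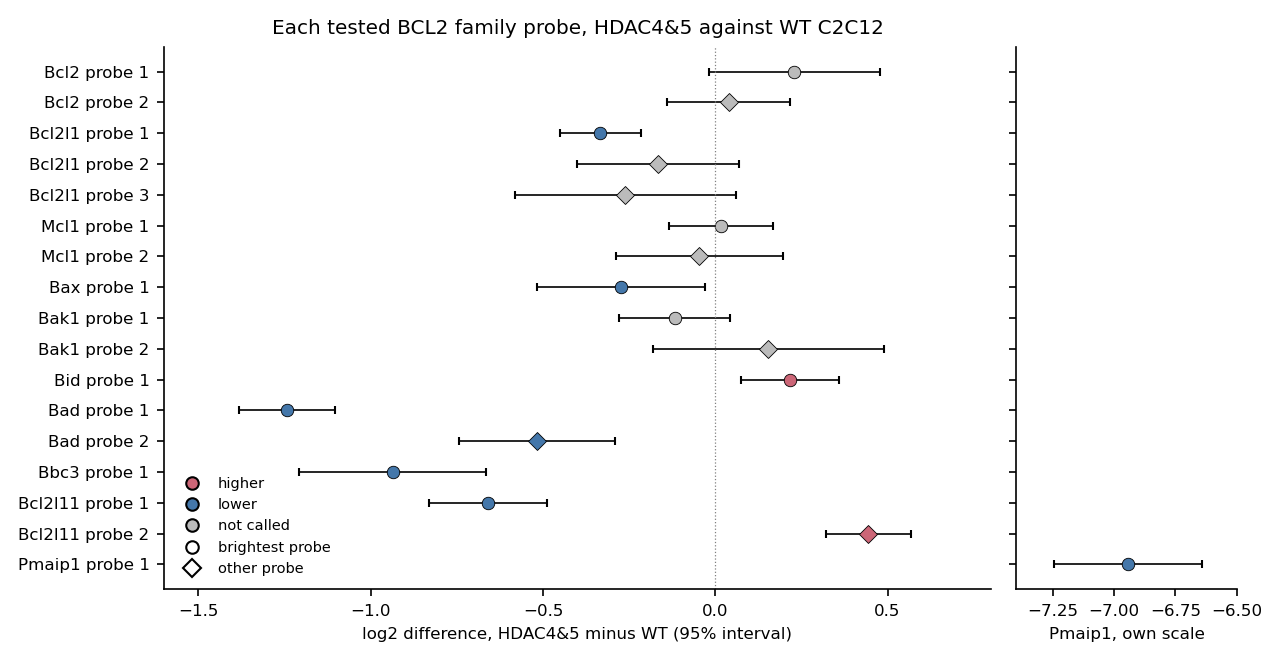
Log2 difference, HDAC4&5 minus WT, of each of the 17 BCL2 family probes tested in C2C12 cells, with its 95% interval from limma; circles are the brightest probe of a gene, diamonds the others, and colour gives the call. Pmaip1 has an axis of its own at -6.94, and the 2 tested Bcl2l11 probes fall on either side of 0.

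At the level of single probes, 17 of the 19 were tested, of which 2 were higher and 7 lower. Over all probes tested, 35.8% were called higher and 30.8% lower. Each gene with more than 1 tested probe except Bcl2l11, Mcl1 and Bak1 had its probes on the same side of 0, and Bcl2l11 was the only one of these with opposite calls.

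In soleus muscle no member differed between db and Con at the adjusted threshold. Pmaip1 was not tested, being well above background in 1 of 3 Con and 2 of 4 db muscles, and the other 9 were. Over the array 0.008% of genes were called higher and 0.008% lower, 1 gene each, so that few genes of any kind passed. At an unadjusted p below 0.05, limma gave 2 members at their brightest probe, Bcl2l1 and Bid, both higher, where 6.05% of all genes tested passed. The methods' t-test gave 1 member unadjusted and none after Benjamini-Hochberg adjustment. The median log2 difference was -0.13 over the 9 members and 0.14 over all 12504 genes tested.

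**Figure D3:**
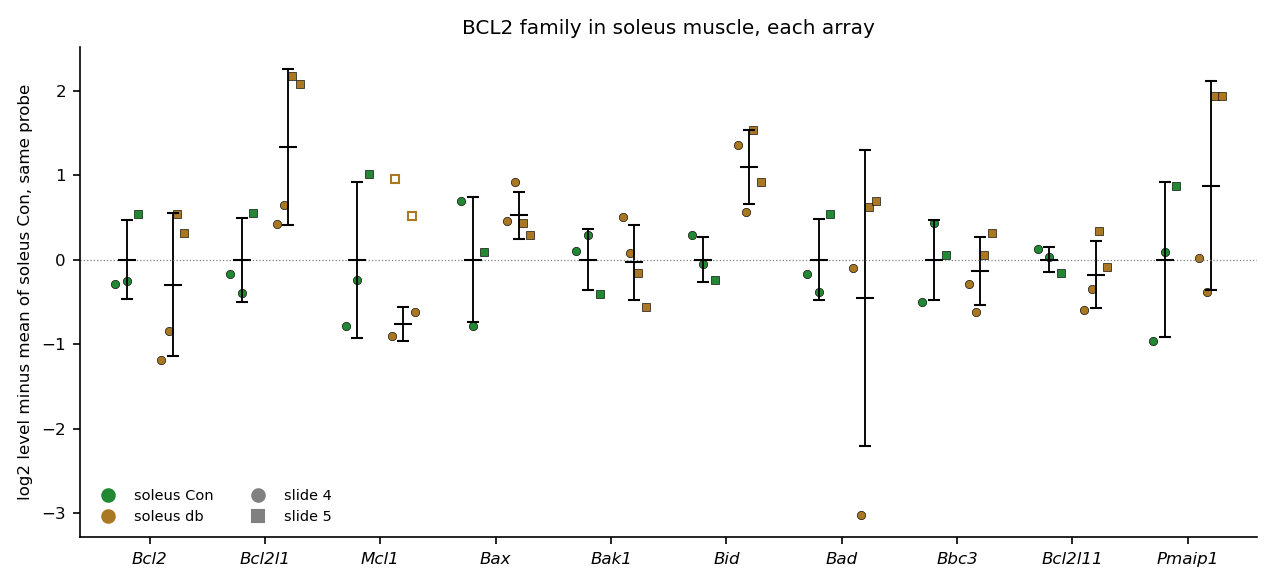
Log2 level of the brightest probe of each BCL2 family gene in each soleus muscle minus the mean of the Con muscles for that probe (dotted line at 0), coloured by group, with the symbol shape giving the slide and bars the mean ± SD of the group. Open symbols are db 3 and db 4 for Mcl1, left out of the mean as outlier-marked, and of the 10 genes Bid alone has its db points all above its Con points.

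Bcl2l1 was at -1.77, -1.99 and -1.05 in the 3 Con muscles and at -1.18, -0.96, 0.57 and 0.47 in the 4 db muscles. The groups overlapped through Con 3 and db 1, and db 3 and db 4, which share the brighter slide with Con 3, were the highest. The difference was 1.33 (95% interval 0.11 to 2.55, limma adjusted p = 0.678), or 0.81 within one slide and 1.57 within the other. A second probe of the gene was not well above background in any Con muscle but was so in all 4 db muscles. It entered the test through db alone, so that its difference rests on values at background in Con. With Con values below the array's lowest signal well above background raised to that signal, the db mean was at least 2.43-fold higher. The probe was not called (95% interval of the log2 difference 0.75 to 2.89, limma adjusted p = 0.511). The third probe gave 0.45 with overlapping groups and was not tested.

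Bid was at -2.56, -2.90 and -3.09 in Con and at -1.50, -2.28, -1.32 and -1.93 in db. Every db muscle was above every Con muscle. Bid was the only member whose groups did not overlap at its brightest probe, and the groups of 9.1% of all genes tested did not overlap, in either direction. The difference was 1.09 (95% interval 0.28 to 1.91, limma adjusted p = 0.635), with 0.84 and 1.47 within the slides. With normexp background correction it was 0.37 (adjusted p = 1.00).

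The remaining members tested were not called, and their groups overlapped at the brightest probe. The difference was 0.53 for Bax (limma adjusted p = 0.843), -0.03 for Bak1 (adjusted p = 0.991), -0.13 for Bbc3 (adjusted p = 0.962), -0.18 for Bcl2l11 (adjusted p = 0.943) and -0.29 for Bcl2 (adjusted p = 0.933). For Mcl1, probe 1 gave -0.76 (adjusted p = 0.846) after the spots of db 3 and db 4 were left out as outlier-marked. These read 6.73 and 6.29, and keeping them made the difference -0.01, while probe 2 gave 1.08 (adjusted p = 0.764). For Bad, probe 1 gave -0.45 (adjusted p = 0.942), as db 2 was at -5.61 and not well above background, and probe 2 gave 0.97 (adjusted p = 0.678). At probe 2 the groups did not overlap, with Con at -3.71 to -2.72 and db at -2.66 to -2.17, and the unadjusted p from limma was below 0.05, although only 1 of the 3 Con muscles was well above background there. The 95% intervals were wide with 7 muscles. Those of Bax (-0.41 to 1.46) and Bcl2l11 (-0.95 to 0.60), for example, held the falls measured for these 2 genes in C2C12 cells. The intervals of Bcl2l1 and Bid, given above, did not hold their differences in cells, -0.33 and 0.22, although neither gene was called in soleus.

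The 10 replicate spots that the array holds for Bcl2, Bcl2l1 and Bax allowed the error within an array to be read. For Bcl2, the SD between these spots was 0.0206 to 0.116 on C2C12 arrays, but 1.29 on the array of db 1, where it was 1.38 for Bcl2l1 and 1.31 for Bax. Adipocyte markers summed to 250 to 454 times the 75th percentile in Con and 225 to 314 in db muscle, macrophage markers to 36.4 to 133 and 45.1 to 140, and erythrocyte markers to 54.1 to 183 and 99.2 to 191. One marker of these lists, Lep, was called higher in db. It was well above background in 1 of 3 Con and all 4 db muscles, and entered the test through db alone. Its call therefore rests in part on values at background in Con. The part of these cells in the levels of the family was not tested.

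Control soleus muscle was set against WT C2C12 cells to compare the family between tissue and cultured myoblasts. This comparison shares the WT arrays with the one above, and as the groups lie on slides of their own, slide and tissue cannot be told apart. Of 9 members tested, 6 were lower in muscle (Bcl2l1, Bax, Bak1, Bid, Bad and Bbc3), 2 were higher (Mcl1 and Bcl2l11) and Bcl2 was not called. Over the array, 36.4% of genes were called higher and 38.1% lower, and the groups of 69.6% of genes did not overlap, as those of 8 members did not. The median log2 difference was -1.37 over the members and -0.05 over all 14873 genes tested.

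Among the members tested, Bid and the pore formers had the largest falls. Bid was at 2.40 to 2.66 in cells and -3.09 to -2.56 in muscle, 40.9-fold lower (log2 difference -5.35, limma adjusted p = 4.42e-10). Bax was at 4.03 to 4.54 and at -0.64 to 0.83, 17.3-fold lower (-4.12, adjusted p = 3.20e-07). Bak1 was 5.25-fold lower at its brightest probe (-2.39, adjusted p = 5.08e-07), while its second probe gave -0.97 with overlapping groups (adjusted p = 0.261). At the brightest probe, each of these 3 genes was below the range of the WT cells in every Con muscle. Bbc3 was 3.83-fold lower (-1.94, adjusted p = 2.05e-05), Bad 2.58-fold (-1.37, adjusted p = 9.08e-05) and Bcl2l1 2.38-fold (-1.25, adjusted p = 0.000212). For Bad this rests on probe 1, and probe 2 differed by -0.23 (adjusted p = 0.383). Probes 2 and 3 of Bcl2l1 were not well above background in any Con muscle. Probe 2 was at least 1.66-fold lower, and probe 3 differed by -0.38 with overlapping groups (limma adjusted p = 0.349). With normexp the difference was -4.02 for Bid, -0.42 for Bad and -0.64 for Bcl2l1, all still called.

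Mcl1 was higher in muscle at both probes, by 1.27 (limma adjusted p = 0.00442) and 1.66 (adjusted p = 2.25e-05). Its first probe was at 5.00, 5.54 and 6.80 in the 3 Con muscles, all above the highest WT array at 4.69, and its difference was 0.73 with quantile normalization and 0.76 without Con replicate 3, both called. Bcl2l11 probe 1 was higher by 0.40 (adjusted p = 0.0288), a call lost without Con replicate 1 or 2 or without any one of WT replicates 1 to 4 (adjusted p = 0.0506 to 0.0668), and with normexp (0.29, adjusted p = 0.0703). Bcl2l11 probe 2 was at least 1.23-fold lower, being not well above background in any Con muscle. Bcl2 differed by 0.25 at probe 1 (adjusted p = 0.313) and by -1.54 at probe 2 (adjusted p = 3.93e-05). Pmaip1 was at -4.73, -3.67 and -2.90 in Con muscle, against 3.69 to 3.89 in WT cells, the widest gap between these groups in the family. It was not tested, since the marked spots of WT cells and the dim spots of muscle kept it out.

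**Figure D4:**
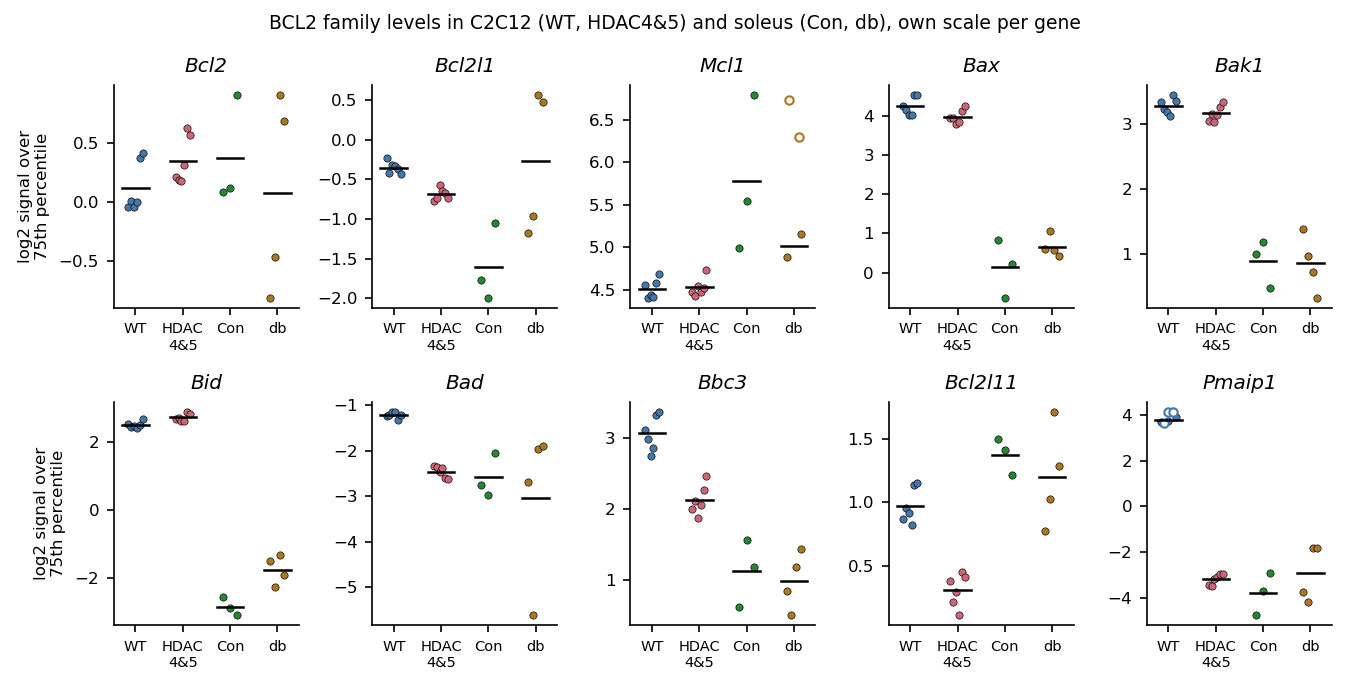
Level of the brightest probe of each BCL2 family gene in the 4 groups (C2C12 WT and HDAC4&5, soleus Con and db), as log2 signal over the 75th percentile, with a scale of its own for each gene, the group mean as a bar and outlier-marked arrays as open symbols. Bax, Bak1, Bid and Bbc3 have all 7 muscle points below all 12 points of C2C12 cells, and Pmaip1 is high in WT cells alone.

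Ordered by group mean at the brightest probe, the levels fell from WT through HDAC4&5 cells to muscle for Bax, Bak1 and Bbc3. For Bid they fell from HDAC4&5 through WT cells to db and then Con muscle. In these orders HDAC4&5 cells and WT cells overlapped for Bax, Bak1 and Bid, and Con and db muscle overlapped for Bax, Bak1 and Bbc3, whereas cells and muscle were apart for all 4. Mcl1 ran the other way, with Con and db muscle, which overlapped, above both kinds of cell, which also overlapped. Pmaip1, and Bad at probe 1, had WT cells above the other 3 groups, and in each the neighbours among those 3 overlapped. At probe 2 of Bad, db muscle was highest and apart from WT cells, which were followed by Con muscle and HDAC4&5 cells, with those 3 overlapping in turn. Bcl2l11 at probe 1 had both muscle groups and WT cells above HDAC4&5 cells, with only the last step apart. At probe 2 of Bcl2l11 the order was HDAC4&5 cells, WT cells, Con muscle and db muscle, with all but the last step apart. No Con muscle was well above background there. For Bcl2 at probe 1 no neighbours in the order were apart. At probe 2 of Bcl2 both kinds of cell, which overlapped, were above and apart from db and Con muscle, which also overlapped. For Bcl2l1 at probe 1, db muscle overlapped WT cells while WT, HDAC4&5 and Con were apart in turn.

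Other genes were ranked by how near their 4 group means, each centred on its own average, lay to those of a member, as a root mean square distance in log2 units over 15365 genes. The nearest to Pmaip1 was Tubb3, a neuronal tubulin, at a distance of 0.33. The nearest to Bbc3 was Nfe2l2, which encodes the antioxidant transcription factor NRF2, at 0.0461. For Bcl2l11 it was 5430434G16Rik at 0.0402, and for Bad it was a probe without a gene symbol, NAP070564-1, at 0.0226. The muscle means of that probe, -5.46 in Con and -5.97 in db, were below the lowest signal well above background of every soleus array. All of these distances are descriptions of 4 means.

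The rest of the apoptotic pathway was read through 6 lists of genes in HDAC4&5 against WT cells, where 35.5% of all genes were higher and 31.5% lower. Among other BCL2 family genes, 9 of 14 on the array were tested, of which 3 were higher, 4 lower and 2 not called. Bik and Bmf, both BH3-only genes, were well above background in all WT cells and in no HDAC4&5 array, at least 4.50-fold and at least 4.30-fold lower. Both entered the test through the WT arrays alone, so that their calls, which are among the 4, rest on values at background. Bok, an effector-like member, fell by 0.91 (adjusted p = 1.74e-07), and Bcl2l2, the guardian BCL-W, rose by 0.31 (adjusted p = 0.0111). Bcl2l15 rose by 0.58 and Bnip3 by 0.30, and Bcl2l12 fell by 0.45.

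Downstream of the membrane, of 8 genes for the mitochondrial channel and for released factors, 1 was higher, 3 lower and 4 not called, with Endog, a mitochondrial nuclease, at -0.77 (limma adjusted p = 2.14e-06), Diablo at -0.24 and Vdac3 at 0.27. Cycs, for cytochrome c, differed by 0.06 (adjusted p = 0.772). Of 7 genes for the apoptosome and caspases, none was higher and 2 were lower, Casp9 at -0.32 (adjusted p = 0.0218) and Casp6 at -0.22 (adjusted p = 0.0124). Of 4 inhibitors of apoptosis tested none was called in either direction.

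Of 6 death receptor genes tested, 3 were higher and none lower, with Tnfrsf1a, the main receptor of TNF, at 0.45 (limma adjusted p = 0.00258) and Cflar, an inhibitor of caspase-8, at 0.36 (adjusted p = 0.0336). Of 13 upstream regulators tested, 6 were higher, 3 lower and 4 not called. Ddit3, the stress-induced transcription factor CHOP, had the largest rise, from 0.42 to 0.63 in WT to 2.86 to 3.03 in HDAC4&5 cells, or 5.29-fold (log2 difference 2.40, adjusted p = 2.96e-13). March5, a mitochondrial ubiquitin ligase, rose by 0.63 and Mdm2, the ubiquitin ligase of p53, by 0.49, and the co-chaperone Bag1 fell by 0.75 and the ubiquitin ligase subunit Fbxw7 by 0.54. Trp53 itself differed by -0.15 and spread over 2 log2 units within a group (adjusted p = 0.779).

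**Figure D5:**
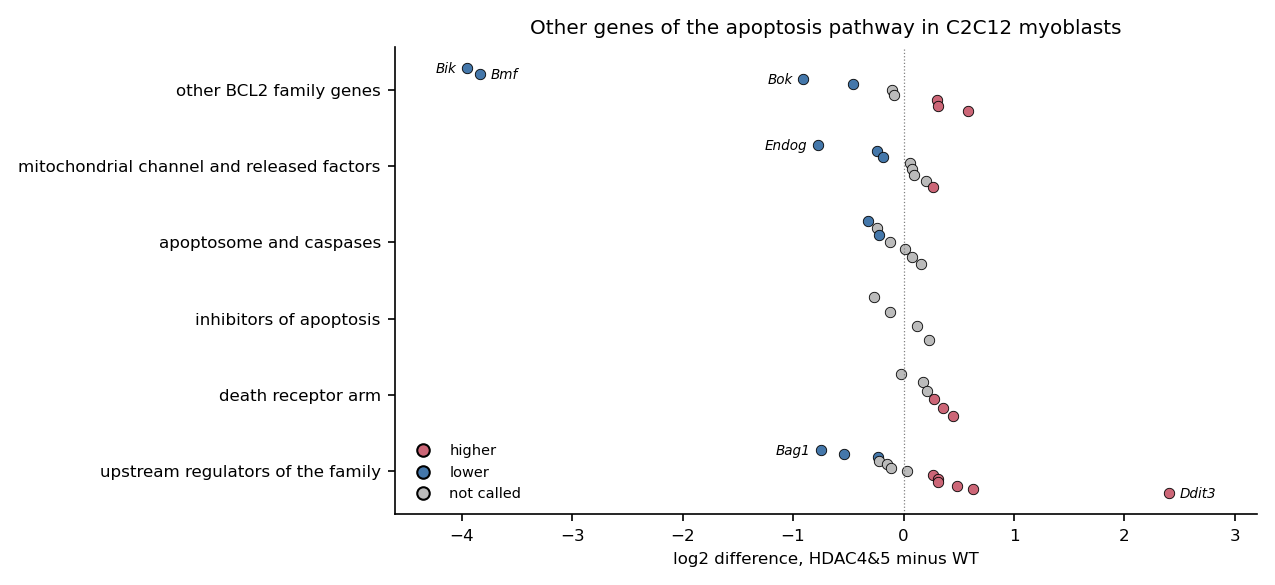
Log2 difference, HDAC4&5 minus WT C2C12, of the tested genes of 6 lists of the apoptosis pathway, 1 point a gene, coloured by call. Bik and Bmf, drawn at their measured means of -3.95 and -3.83, were not above background in HDAC4&5 cells and have only a bound, and Ddit3 at 2.40 stands alone on the right.

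In soleus muscle no gene of the 6 lists was called between db and Con, with 8, 8, 6, 5, 5 and 10 genes tested in turn.

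Between Con muscle and WT cells, where 36.4% of all genes were higher and 38.1% lower, 6 of the 8 genes for the channel and released factors were higher in muscle and 1 was lower. Endog was higher by 3.29 and Vdac2, a channel of the outer membrane, by 1.85, and Htra2, a protease released from mitochondria, was at -1.96. Of 7 apoptosome genes and caspases none was higher and 5 were lower, with Apaf1, the scaffold of the apoptosome, at -2.43. Other BCL2 family genes were higher in 5 of 9 and lower in 2. Bnip3, a mitophagy receptor, was 62.0-fold and Bmf 17.4-fold higher, while Bok was at -3.54 and Bcl2l13 at -0.82.

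The inhibitors of apoptosis were higher in 3 and lower in 2 of 5. Birc3 was not well above background in WT cells and at least 78.4-fold higher in muscle, Birc2 was higher by 1.65, and Birc5, which encodes survivin, a protein of dividing cells, was at -6.55 and Xiap at -1.30. The death receptor genes were higher in 1 and lower in 4 of 7. Fas, a death receptor, was higher by 1.74, and Tnfrsf10b, the mouse receptor of TRAIL, was not well above background in muscle and at least 5.10-fold lower. Tradd was at -2.02, a difference that rests on 1 WT array with an unmarked spot. The upstream regulators were higher in 3 and lower in 3 of 13, in each direction a smaller share than over all genes. Bag3, a co-chaperone, was higher by 1.92 and Fbxw7 by 1.28, E2f1, a transcription factor of the cell cycle, was not well above background in muscle and at least 17.6-fold lower, and Ywhaz, a 14-3-3 protein, was at -1.82. Birc3, Tnfrsf10b and E2f1 entered the test through the group in which they were high, so that their calls rest on values at background in the other.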

How the data were processed

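The authors labelled 100 ng of total RNA with Cy3, scanned the arrays with Agilent Feature Extraction 9.5.1.1 and deposited the intensity of each spot. A matrix deposited by the authors gave, except on the dimmer soleus slide, the processed intensity as a ratio to a constant for each array. The log2 values had an SD of 0.0025 to 0.0199 about the closest scanner file. For the dimmer soleus slide that SD was 0.326 to 0.415, which 1 constant per array cannot give. How the authors made the ratios of that slide before deposit was not tested. The matrix was used by group only, since its db columns matched scanner files of other db replicates. Here log2 of the processed intensity was taken relative to the 75th percentile of each array, leaving out control spots and outlier-marked spots and averaging replicate spots. Probes that the scanner software put well above background on all arrays of either group were fitted with limma 3.58.1 in R 4.3.3 (data.table, version 1.17.8), with Benjamini-Hochberg adjustment over all probes at 0.05. The same fit was tested on simulated data in which 200 probes were given a change of 2 log2 units. In the comparison of cells it recovered 98% of them, and 6.67% of its calls were false. In that of soleus it recovered 20.5%, with 0% false, so most changes of that size were missed there. A gene was read at its brightest probe. "At least" folds set the brighter group against the dimmer one, whose values were raised to the array's lowest signal well above background where they lay below it. All members, Hdac4, Hdac5 and the 2 largest calls in each direction of a pathway list are named, with further list genes chosen after their values were seen; 1 list gene is not reported here. Members and lists were chosen with earlier results of these data known. Coordinates are those of the files, which name mm9 except on 1 soleus slide. Same-numbered samples deviated together (correlation 0.368 to 0.704 over 6 pairs in cells, 0.446 to 0.731 over 3 in muscle). Other arrays of the same slide did so to a like degree (0.356 to 0.717 and 0.359 to 0.803). A pairing by replicate number could therefore not be told apart from the slide. The main fits used no block, and the replicate number and the slide were each taken as a block in other settings. The number of arrays limits the precision.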

Additional observations from a re-analysis of the deposited data

Results flagged for a closer look

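Of 55 sets of arrays examined, each a BCL2 family probe in a group of at least 4, 1 held an array set far apart from the rest, where chance alone would set apart about 2.75, or 1 set in 20. The third Bcl2l1 probe read -3.33 on HDAC4&5 replicate 4, while the other 5 HDAC4&5 arrays lay between -4.33 and -4.00. This probe was dim and its comparison was not called.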

How the results depend on the processing

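The count of BCL2 family genes called in HDAC4&5 against WT cells was 7 and ranged from 5 to 9 over other settings, except that requiring a 1.5-fold difference as well gave 4; leaving out single arrays gave 6 to 7. With the replicate block it was 8, since Bcl2 was added, and with the slide block 9; the replicate block changed no other call of a member. In soleus the count was 0 with the replicate block, with the slide block and on leaving out single muscles (0 to 0), 1 with the unadjusted methods' t-test and 2 with unadjusted limma. In Con muscle against WT cells it was 8, ranging from 7 to 9 (9 with outlier-marked spots kept, a setting chosen after seeing the data), and 7 to 8 without single arrays. Differences that changed sign were all of members without a call, and the cause was not tested. For Mcl1 in cells the difference was -0.0111 with quantile normalization, -0.0297 with normexp, -0.17 in the deposited matrix and -0.0265 to 0.05 without single arrays. In soleus the deposited matrix differed from the scanner files of the dimmer slide by more than a constant. The log2 difference in soleus was 0.42 for Bad and 0.0194 for Bcl2l11 in that matrix. It was 0.0747 with the slide block and 0.14 with the replicate block for Bak1. Without single muscles it was -0.83 to 0.41 for Bad, -0.23 to 0.14 for Bak1, -0.38 to 0.0871 for Bbc3 and -0.57 to 0.0033 for Bcl2, and without single arrays Bcl2 differed by -0.017 to 0.40 between muscle and cells. Over all probes, 13997 calls in cells became 9211 with 1 probe per gene and 7932 with a 1.5-fold minimum; 2 in soleus became 31 with the slide block, 1294 with unadjusted limma, 1458 with the unadjusted methods' t-test and 0 or 1 under 6 other settings and without single muscles; 16560 between muscle and cells became 32526 without the filter on dim probes and 10423 with the strictest one. In that comparison normexp moved the median of all genes from -0.05 to 0.21 and quantile normalization to -0.30. Dim probes and the low signal of 1 soleus slide limit what the muscle arrays can show.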
